A study of Homo sapiens with 6 samples.

Results

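The 37 genes described here are 16 fibroblast growth factor (FGF) ligands, 4 intracellular FGF homologous factors, the 4 FGF receptors, the adaptor FRS2, 9 feedback inhibitors of the ERK cascade and the 3 ETS transcription factors ETV1, ETV4 and ETV5. They were chosen by gene symbol, each matched through its Ensembl identifier to GENCODE release 29, out of 58735 genes in the count table. Their RNA was measured by RNA-seq in cells labelled 3PPE (endoderm of pharyngeal pouch 3), differentiated from H9 cells, a human embryonic stem cell line. The siControl group held 3 libraries from wild-type cells given a negative control siRNA, and the siHOXA3 group held 3 libraries from cells given an siRNA against HOXA3 (HOXA3 knockdown). The comparison asks how reducing HOXA3, a homeobox gene of the pharyngeal region, alters expression in these cells.

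Both groups went through the same directed differentiation. H9 cells were first grown on mouse embryonic fibroblasts and brought to endoderm with Activin A, with WNT3A and a ROCK inhibitor on the first day. They then received 20 ng/ml BMP4, 1 µM retinoic acid (RA), 10 µM SB431542, an inhibitor of TGF-beta family receptors, and 2.5 µM IWP2, an inhibitor of Wnt secretion. The undifferentiated H9 cells were kept in medium with basic FGF (FGF2), and the differentiation media from then on name no added FGF. The siRNA was given at day 7. By the methods, opti-MEM took the place of the differentiation medium some hours later, and all cells were harvested at day 9. The methods do not list what this medium contained. All 6 libraries came from 1 cell line. The study describes the repeats of its siRNA experiments as biological and independent, without naming the RNA-seq, and the labels do not say whether the libraries came from separate differentiations, so the p-values measure the spread between these libraries, which may be in part technical.

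FGF ligands bind receptor tyrosine kinases at the cell surface with heparan sulfate or a Klotho protein as cofactor. The receptors phosphorylate FRS2, which recruits GRB2 and SOS and so activates RAS, RAF, MEK and ERK. ERK activity induces its own inhibitors, among them the Sprouty, SPRED and DUSP proteins and IL17RD (SEF), and the PEA3 group of ETS factors, ETV1, ETV4 and ETV5, which are widely used as readouts of FGF signalling. In the embryo, FGF8 and FGF10 are known for their parts in pharyngeal pouch and thymus development.

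The libraries held between 14117150 and 15282307 counts. A count of 3, the most that a count of 0 allows, was worth 0.197 to 0.211 CPM (counts scaled to the normalized library size), and this limit covers counting error only. siHOXA3 replicate 2 stood apart from the other 5 libraries: on the first principal component, which held 37.5% of the variance, it lay at -43.4 and the others between 4.48 and 13.4, and its log2 deviation correlated with transcript length at a Spearman rho of -0.399, against 0.0870 to 0.166 in the others (across genes, which are not independent replicates). Member results that turn on it are given with and without it, while the marker and pathway lists were compared with all 6 libraries. HOXA3 itself had 16.6, 15.9 and 15.5 CPM in siControl and 10.9, 13.2 and 15.5 CPM in siHOXA3. The 2 groups overlapped, with a log2 fold change of -0.27 ± 0.157 (SE) and an adjusted p of 0.828 by edgeR (two-sided exact permutation test on CPM, p = 0.2, where the smallest possible with 3 against 3 is 0.1). Of 11 markers of pouch and foregut endoderm, 3 had enough counts to be tested: EPCAM, CDH1 and EYA1. FOXA2, SOX17, PAX1 and FOXN1 were at most at 0.0928 CPM on average in either group. The highest of the untested pouch markers was GATA4, at 0.576 CPM in siControl and 0.646 CPM in siHOXA3. In siControl the tested pouch markers averaged from 36.3 CPM (EYA1) to 663 CPM (CDH1). The amnion and trophoblast markers averaged from 10.3 CPM (TFAP2B) to 954 CPM (GABRP) there. The name 3PPE is that of the labels, and whether the cells were pouch endoderm was not tested. All 9 markers of amnion and trophoblast were tested, and their summed level was 2975 to 3228 CPM in siControl and 3079 to 3334 CPM in siHOXA3. Of the 9, 3 (33.3%, against 6.41% of all genes tested) were higher in every siHOXA3 than in every siControl library. By fitted level 6 of the 9 were higher and 3 lower, with CGA lowest at a log2 fold change of -0.45. Of 6 pluripotency markers 4 were tested, and the others, NANOG and TDGF1, were at most at 0.0895 CPM on average in either group. Among the 4 tested, 2 (50%), POU5F1 and LIN28A, were also higher in every siHOXA3 library. None of the pouch, mesenchyme, neural or liver markers tested were. In siControl LIN28A averaged 1049 CPM, DPPA4 102 CPM, POU5F1 5.47 CPM and SOX2 3.62 CPM, so LIN28A made up most of the pluripotency sum. The summed levels in siControl and siHOXA3 were 1139 to 1181 and 1190 to 1326 CPM for pluripotency markers, 3368 to 3544 and 3210 to 3782 CPM for mesenchyme, 2.89 to 5.17 and 3.44 to 7.18 CPM for neural and 1.32 to 1.75 and 1.24 to 2.39 CPM for liver markers. The part of such cells in the results was not tested. In bulk RNA, fewer cells of a type and less RNA per cell cannot be told apart.

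Of the 37 genes, 21 had enough counts for a test, 16 were removed by the filter on low counts, and 4 of these (FGF3, FGF4, FGF8 and FGF16) had no count in any library. The test was the two-sided quasi-likelihood F test of edgeR, adjusted by the Benjamini-Hochberg method over all 16561 genes that passed the filter. None of the 21 reached an adjusted p under 0.05, as in DESeq2 and limma-voom, and over all genes tested that share was 0.00604% (1 gene). An unadjusted p under 0.05 was found for 3 of the 21, SPRY4 with a lower and SPRY2 and FGFR4 with a higher level in siHOXA3, against 6.36% of all genes tested. DESeq2 found 2, SPRY4 and FGFR4 (5.65% of all genes), and limma-voom found 2, SPRY4 and FGFR3 (13.4% of all genes). Without siHOXA3 replicate 2, edgeR found SPRY4 and FGFR3 and no longer SPRY2 and FGFR4 (10.7% of all genes). In siHOXA3, 15 of the 21 had a lower and 6 a higher fitted level, against 8220 lower and 8341 higher among all genes tested. The median log2 fold change of the members was -0.050, against 0.0019 over all genes tested. Without siHOXA3 replicate 2 this median was -0.051, and SPRY1, SPRED2 and IL17RD turned to a higher fitted level (0.023, 0.16 and 0.048). FGF2, FGF13, SPRED1 and DUSP6 were then lower, at -0.22, -0.20, -0.13 and -0.30. With all libraries they were at -0.07, -0.01, -0.06 and -0.13. Every siHOXA3 library lay below every siControl library for 5 of the 21 (23.8%, against 6.88% of all genes tested), namely FRS2, SPRY4, ETV1, ETV4 and ETV5. The opposite arrangement was found for 1, SPRY2 (4.76%, against 6.41% of all genes tested). The members are the genes of one pathway in the same 6 libraries and are not replicates of each other.

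The start regions of the tested members whose groups did not overlap are shown because these are the stretches where a shared sequence feature might be looked for. The sequence comes from RefSeq on GRCh38.p14 and runs from 5′ to 3′ on the gene's own strand. Each stretch lies within the 250 bases upstream of a RefSeq start, with bases of annotated exons left out. Capitals mark the ETS core letters CCGGAA or their reverse complement TTCCGG. ETV4 and ETV5 are named only.
FRS2, chr12:69470138-69470348, plus strand: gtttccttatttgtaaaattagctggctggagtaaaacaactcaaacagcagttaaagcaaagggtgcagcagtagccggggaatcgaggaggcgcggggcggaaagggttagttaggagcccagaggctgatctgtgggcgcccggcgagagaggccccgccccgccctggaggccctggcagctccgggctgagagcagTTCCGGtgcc
SPRY2, chr13:80341127-80341376, minus strand: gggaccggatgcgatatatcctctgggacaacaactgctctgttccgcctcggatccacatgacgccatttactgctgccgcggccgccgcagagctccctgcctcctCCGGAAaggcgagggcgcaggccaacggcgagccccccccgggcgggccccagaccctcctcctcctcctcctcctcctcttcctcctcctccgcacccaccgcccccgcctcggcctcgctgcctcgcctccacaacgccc
SPRY4, chr5:142324418-142324497, minus strand: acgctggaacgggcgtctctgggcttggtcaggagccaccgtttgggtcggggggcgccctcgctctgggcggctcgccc
ETV1, chr7:13991426-13991675, minus strand: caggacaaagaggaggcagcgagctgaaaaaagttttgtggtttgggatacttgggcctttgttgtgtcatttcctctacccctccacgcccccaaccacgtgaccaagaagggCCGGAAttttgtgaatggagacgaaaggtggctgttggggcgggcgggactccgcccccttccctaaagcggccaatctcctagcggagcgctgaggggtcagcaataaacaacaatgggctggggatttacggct
The ETS letters occurred once each in the stretches of FRS2, SPRY2 and ETV1 and not in the 80 bases of SPRY4, whose RefSeq start lies 2208 bases downstream of the GENCODE 5′ end, so that its stretch is inside the GENCODE gene. Over windows of 250 bases upstream of all RefSeq starts, searched on both strands, 17.9% of 22198 held them. Among the members, 26 had a window and 4 held the letters (ETV1, FRS2, SPRY1 and SPRY2), in 6 of their 53 windows (11.3%), a share below that of all windows. The homeodomain letters TAATTA, which read the same on both strands, were in 3.15% of all windows and in 0 of the 53. A match of letters is a description and not a binding site.

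**Figure D1:**
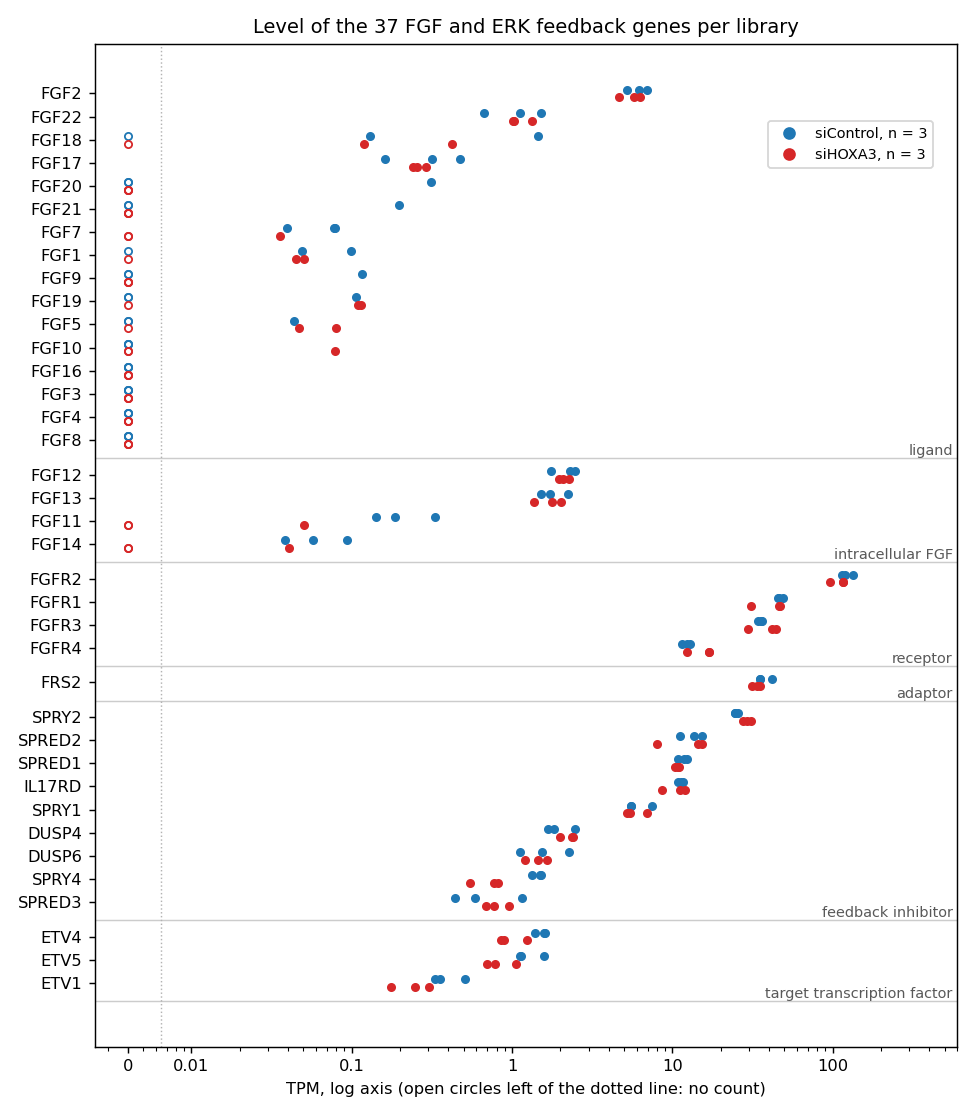
Level of each of the 37 genes in each library in TPM (log axis, counts divided by the summed exon length and scaled to the same total in every library), grouped by class, with siControl libraries in blue and siHOXA3 libraries in red (n = 3 each) and open circles for libraries with no count. The receptors reach 133 TPM in the highest library, FGF2 is the ligand with the highest level, and most other ligands have open circles.

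The ligands were almost all at or near the detection limit in both groups. Of 16, only FGF2 and FGF22 passed the filter, 4 had no count, 8 others had at most 3 counts in every library, and 2 removed ligands had more in at least 1 library. FGF2 (basic FGF), a broadly acting ligand that maintains human pluripotent cells in culture, had 9.00, 10.8 and 11.6 CPM in siControl and 10.1, 11.9 and 7.89 CPM in siHOXA3. The highest and the lowest of these 6 values were both in siHOXA3, and the log2 fold change was -0.07 ± 0.189 (SE; edgeR adjusted p = 0.954). Of the annotated FGF2 exon bases, 11.87% overlap NUDT6 on the opposite strand, and since the handling of strand is not given in the sources used here, reads of the 2 genes cannot be told apart there. FGF22, a member of the FGF7 subfamily, was low, at 0.775 ± 0.308 CPM (SD, n = 3) in siControl and 0.822 ± 0.131 CPM in siHOXA3.

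On the per-length TPM scale, the 16 ligands summed to 8.68, 8.38 and 8.20 TPM in siControl and to 7.51, 7.97 and 6.49 TPM in siHOXA3. FGF2 made up 59.7%, 74.3% and 84.2% of this sum in siControl and 76.8%, 78.9% and 71.5% in siHOXA3. On this scale the sums were lower in each siHOXA3 library, but the summed CPM (11.4 to 12.5 in siControl, 9.16 to 13.4 in siHOXA3) and the FGF2 share overlapped. The high TPM sum and the low share in siControl replicate 1 went with 11 counts of FGF18 in that library, the largest count of any removed ligand. FGF18 had 11, 1 and 0 counts in siControl and 0, 1 and 3 in siHOXA3, so 1 library held nearly all of its siControl reads. FGF17, of the FGF8 subfamily, had 4, 6 and 2 counts in siControl and 3, 4 and 3 in siHOXA3, present in every library and overlapping between groups.

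The other ligands gave single reads. FGF7, an epithelial growth factor made by mesenchyme, had 2, 2 and 1 counts in siControl and 0, 1 and 0 in siHOXA3. FGF10, its relative required for thymus growth, had 1 count in siHOXA3 replicate 2 and 0 in every other library. FGF1, FGF5, FGF9, FGF19, FGF20 and FGF21 had between 0 and 2 counts in each library. FGF8, FGF3, FGF4 and FGF16 had 0, which allows up to 3 counts per library. At this depth no difference in these ligands was detectable.

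The FGF homologous factors FGF11 to FGF14 are intracellular proteins that bind voltage-gated sodium channels and do not act as secreted ligands. FGF13 had 7.99, 9.12 and 11.4 CPM in siControl and 7.36, 11.6 and 9.23 CPM in siHOXA3 (log2 fold change -0.01 ± 0.209). FGF12 was at 4.07 ± 0.754 CPM (SD, n = 3) and 4.04 ± 0.289 CPM. Both pairs of groups overlapped, with edgeR adjusted p-values of 0.99 and 0.995. FGF11 and FGF14 were removed by the filter. FGF11 had 3, 4 and 7 counts in siControl and 0, 0 and 1 in siHOXA3, a ratio of the depth-scaled sums of 13.6 with a 95% interval of 2.07 to 576 that covers counting error only. FGF14 had 3, 5 and 2 counts against 0, 0 and 2, a ratio of 4.87 with an interval of 1.04 to 45.7. Among the removed ligands, FGF7 had the same ratio with an interval of 0.545 to 230, and FGF18 a ratio of 2.92 with an interval of 0.885 to 12.4. These intervals pool the reads of each group and are not adjusted for the number of genes. Of the FGF11 reads, 14 were in siControl and 1 was in siHOXA3, while the FGF14 groups touched at 2 counts. Of the annotated FGF11 exon bases, 75.02% overlap the transcript AC113189.4 on the same strand, and 31.64% of those of FGF14 overlap ITGBL1 on the opposite strand, so the source of these few reads is uncertain.

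The receptors had the highest summed level of any class, and all 4 were expressed in every library. Their order on the TPM scale in siControl was FGFR2 at 122 ± 9.83 TPM (SD, n = 3), FGFR1 at 46.9 ± 1.69 TPM, FGFR3 at 35.4 ± 1.21 TPM and FGFR4 at 12.2 ± 0.699 TPM. None of these neighbours overlapped in siControl. In siHOXA3, FGFR1 (30.7 to 46.6 TPM) and FGFR3 (29.8 to 44.3 TPM) overlapped, while FGFR2 stayed above and FGFR4 below both. This overlap came from siHOXA3 replicate 2, which held the lowest value of both. In siHOXA3 replicates 1 and 3, FGFR1 had 46.0 and 46.6 TPM and FGFR3 had 41.9 and 44.3 TPM. Within every library FGFR1 was above FGFR3. With the length of the longest transcript in place of the summed exons the order in siControl was the same, with FGFR2 at 162 and FGFR1 at 79.5 TPM. Within libraries FGFR2 had 2.33, 2.63 and 2.89 times the TPM of FGFR1 in siControl and 2.51, 3.14 and 2.49 times in siHOXA3. The counts do not separate the epithelial (IIIb) from the mesenchymal (IIIc) splice forms, which bind different ligands.

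FGFR1 had 173, 161 and 158 CPM in siControl and 165, 119 and 162 CPM in siHOXA3. The siHOXA3 value at 119 CPM was that of replicate 2, and the other two lay among the siControl values. The log2 fold change was -0.15 ± 0.129 with all libraries (edgeR adjusted p = 0.867) and -0.013 without that replicate. FGFR2, the receptor of FGF7 and FGF10 in epithelia, had 221, 232 and 250 CPM in siControl and 226, 204 and 221 CPM in siHOXA3. Its groups overlapped through siHOXA3 replicate 1, with a log2 fold change of -0.11 ± 0.0998 (adjusted p = 0.867) and of -0.074 without siHOXA3 replicate 2.

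FGFR3 had 44.4, 45.0 and 40.9 CPM in siControl and 52.5, 40.4 and 53.8 CPM in siHOXA3. siHOXA3 replicates 1 and 3 were above all siControl libraries and replicate 2 was below them all. The log2 fold change was 0.17 ± 0.128 (edgeR adjusted p = 0.851) with all libraries and 0.29 (adjusted p = 0.287) without replicate 2. FGFR4, which binds FGF19 with a Klotho cofactor, had 14.2, 15.8 and 14.8 CPM in siControl and 15.3, 22.9 and 20.5 CPM in siHOXA3. The siHOXA3 replicate 1 value lay within the siControl range and the other two above it. The log2 fold change of FGFR4 was 0.39 ± 0.163 (adjusted p = 0.741), and 0.26 (adjusted p = 0.572) without siHOXA3 replicate 2. Summed over the 4 receptors, siControl had 210, 215 and 226 TPM and siHOXA3 had 215, 174 and 224 TPM, with the lowest sum in replicate 2 of siHOXA3.

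FRS2, the docking adaptor that links the receptors to GRB2, had 65.6, 65.2 and 74.7 CPM in siControl and 62.9, 63.2 and 63.8 CPM in siHOXA3. The siHOXA3 values were close together and all below the siControl values, 2 of which were only slightly higher. The log2 fold change was -0.11 ± 0.10 (edgeR adjusted p = 0.867), a difference close in size to its SE. FRS2 lies on the plus strand of chromosome 12, at 69470349 to 69579789 on GRCh38.

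**Figure D2:**
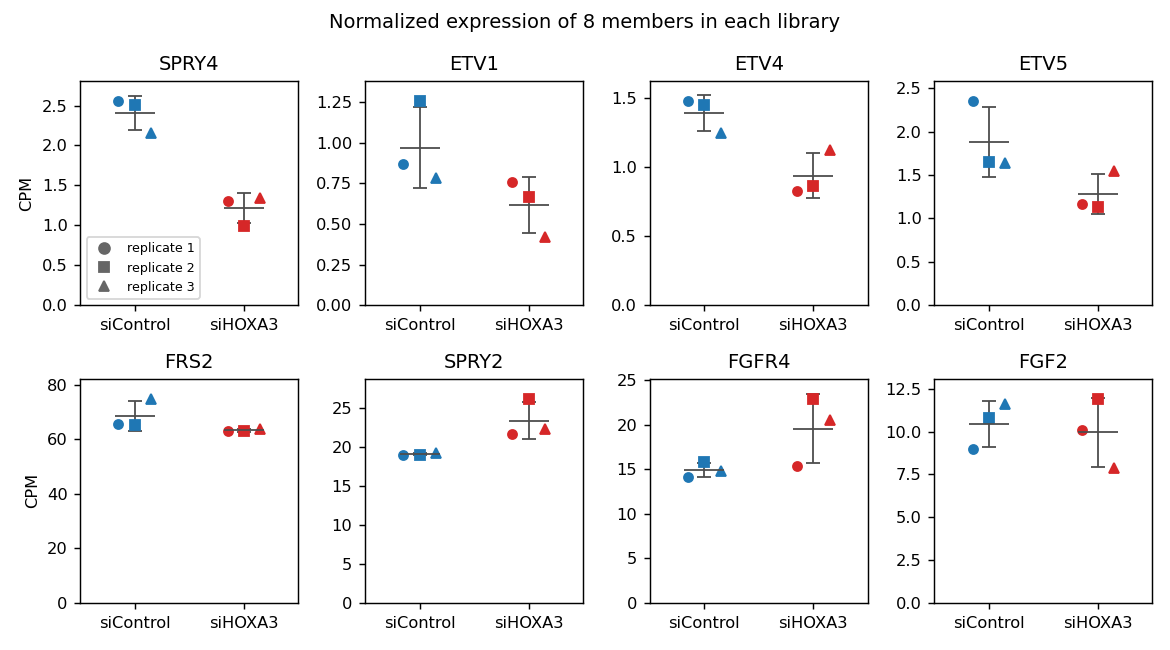
CPM of 8 members in each library, with 1 marker shape per replicate number, the horizontal bar at the group mean and the error bar at 1 SD (n = 3), and the vertical axis starting at 0 in every panel. SPRY4 lies at 2.16 to 2.55 CPM in siControl and at 0.997 to 1.34 CPM in siHOXA3, SPRY2 is higher in every siHOXA3 library, and FGFR4 and FGF2 overlap between groups.

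The 3 Sprouty genes, inhibitors of receptor tyrosine kinase signalling upstream of ERK, differed from each other in direction and level. SPRY4, on the minus strand of chromosome 5 at 142310427 to 142326455 (GRCh38), had 2.55, 2.51 and 2.16 CPM in siControl and 1.31, 0.997 and 1.34 CPM in siHOXA3. These values rest on 38, 38 and 33 counts and on 19, 15 and 19 counts. The siControl libraries had on average 1.98 times the siHOXA3 level by the fit, and the groups did not overlap. The log2 fold change was -0.98 ± 0.311, the lowest of the 21 members, with an adjusted p of 0.662 by edgeR and 0.577 by DESeq2. Over the 13 alternative settings it stayed between -1.06 and -0.86, with adjusted p-values between 0.218 and 0.997, and without siHOXA3 replicate 2 it was -0.86 (adjusted p = 0.410).

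SPRY2, on the minus strand of chromosome 13 at 80335976 to 80340951, went the other way, with 19.1, 19.0 and 19.3 CPM in siControl and 21.7, 26.2 and 22.4 CPM in siHOXA3. The siControl libraries (SD of 0.159 CPM, from only 3 libraries) all lay below the siHOXA3 libraries (SD of 2.41 CPM). Its log2 fold change was 0.29 ± 0.127 (edgeR adjusted p = 0.762), and 0.20 (adjusted p = 0.593) without siHOXA3 replicate 2, its highest library. SPRY1 had 5.57, 5.62 and 7.34 CPM in siControl and 7.15, 5.79 and 5.42 CPM in siHOXA3, with a log2 fold change of -0.01 ± 0.206. Within libraries, SPRY4 had 0.134, 0.132 and 0.112 times the CPM of SPRY2 in siControl and 0.0601, 0.0381 and 0.0597 times in siHOXA3. This ratio was chosen after the values were seen and is given as a description.

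SPRED1 and SPRED2, Sprouty-related proteins that bring neurofibromin to RAS, and IL17RD, a membrane inhibitor of FGF receptors, were at intermediate levels. SPRED1 had 23.0, 25.9 and 24.2 CPM in siControl and 22.1, 25.3 and 22.5 CPM in siHOXA3. SPRED2 had 20.3, 17.8 and 14.3 CPM in siControl and 20.3, 11.6 and 18.8 CPM in siHOXA3. IL17RD had 27.9, 28.3 and 25.6 CPM in siControl and 29.7, 22.9 and 26.8 CPM in siHOXA3. All 3 overlapped between groups, with log2 fold changes of -0.06 ± 0.122, -0.05 ± 0.211 and -0.04 ± 0.13 (edgeR adjusted p of 0.936, 0.970 and 0.958). SPRED2 and IL17RD were both lowest in siHOXA3 replicate 2, and without it their log2 fold changes were 0.16 and 0.048.

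The remaining feedback inhibitors were low and overlapped between groups. The ERK phosphatase DUSP6 (MKP3), a cytoplasmic protein, was at 1.93 ± 0.695 CPM (SD, n = 3) in siControl and 1.75 ± 0.347 CPM in siHOXA3, and 40.48% of its exon bases overlap the antisense gene AC024909.2. DUSP4 (MKP2), a nuclear phosphatase, was at 3.65 ± 0.813 CPM and 4.30 ± 0.215 CPM, and SPRED3 at 1.09 ± 0.579 CPM and 1.24 ± 0.151 CPM. Their log2 fold changes were -0.13 ± 0.355, 0.24 ± 0.235 and 0.19 ± 0.435, each smaller than or about equal to its SE. Over the 9 feedback inhibitors the median log2 fold change was -0.04, with 3 higher and 6 lower and with values from -0.98 to 0.29. The summed CPM of the class was 98.5 to 107 in siControl and 100.1 to 109 in siHOXA3.

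**Figure D3:**
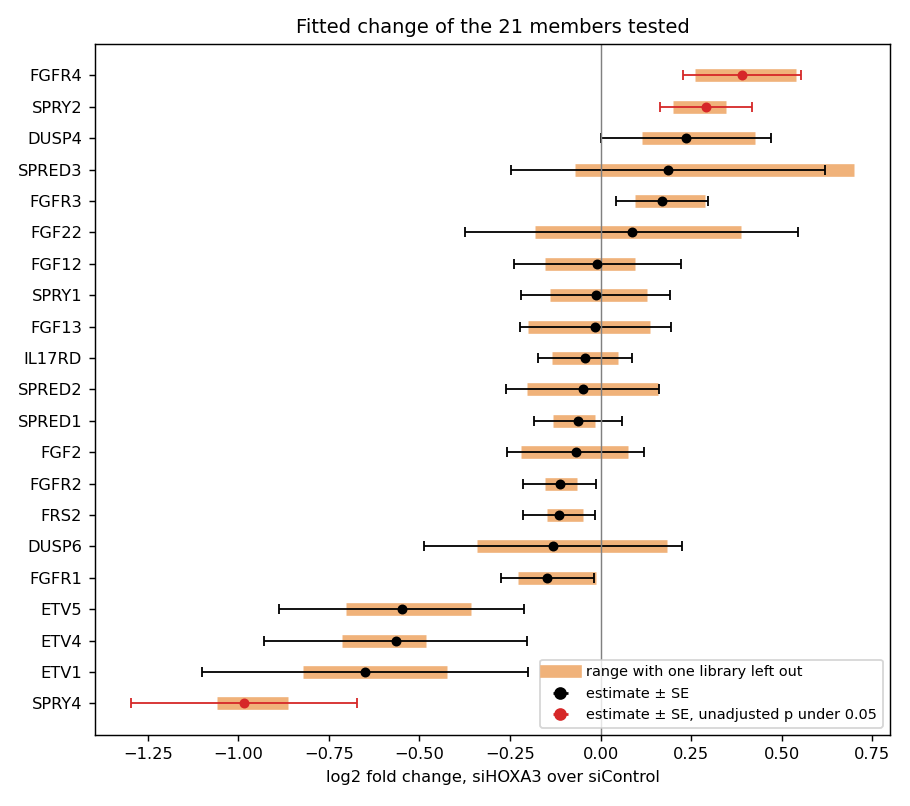
Log2 fold change of siHOXA3 over siControl for the 21 members tested, with the edgeR estimate and its SE as points and bars (red where the unadjusted p is under 0.05) and the range of the estimate with each library left out in turn as an orange band. SPRY4 and the 3 ETV genes lie at -0.55 or lower, FGFR4 and SPRY2 lie at 0.39 and 0.29, and the orange bands of 9 members cross 0.

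ETV1, ETV4 and ETV5 were all lower in siHOXA3 in fitted level and had few counts. ETV1, on chromosome 7 at 13891228 to 13991425, had 13, 19 and 12 counts in siControl and 11, 10 and 6 in siHOXA3. ETV4, on chromosome 17 at 43527844 to 43579620, had 22, 22 and 19 counts in siControl and 12, 13 and 16 in siHOXA3. ETV5, on chromosome 3 at 186046308 to 186110318, had 35, 25 and 25 counts in siControl and 17, 17 and 22 in siHOXA3. All 3 genes lie on the minus strand (GRCh38), and in each of them the highest siHOXA3 library was below the lowest siControl library. The margins were narrow, at 0.756 against 0.786 CPM for ETV1, 1.13 against 1.24 CPM for ETV4 and 1.55 against 1.64 CPM for ETV5.

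In CPM, ETV1 was at 0.972 ± 0.25 (SD, n = 3) in siControl and 0.615 ± 0.173 in siHOXA3, ETV4 at 1.39 ± 0.128 and 0.939 ± 0.164, and ETV5 at 1.88 ± 0.407 and 1.28 ± 0.232. The log2 fold changes were -0.65 ± 0.451, -0.57 ± 0.363 and -0.55 ± 0.339, with edgeR adjusted p-values of 0.843, 0.830 and 0.828. None had an unadjusted p under 0.05 in any setting. Without siHOXA3 replicate 2 the log2 fold changes were -0.71, -0.51 and -0.47. Summed over the 3 genes there were 70, 66 and 56 counts in the siControl libraries and 40, 40 and 44 in the siHOXA3 libraries, a sum formed after the single values were known. Of the 21 members tested, SPRY4 and these 3 genes had the lowest fold changes, and none of them was above 2.55 CPM in any library.

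The other genes of the pathway were read from 4 lists of 62 genes in all, of which 57 were tested, 26 with a higher and 31 with a lower fitted level in siHOXA3. None had an adjusted p under 0.05 in edgeR, and 3 had an unadjusted p under 0.05: NRAS, FLRT1 and FLRT2 (5.26%, a share below the 6.36% of all genes tested). The RAS-ERK cascade list had a median log2 fold change of -0.07 over 21 genes, 8 higher and 13 lower. Of these 21, 5 (23.8%, against 6.88% of all genes tested) had every siHOXA3 library below every siControl library, among them GRB2, SOS2, NRAS and NF1. Over all 57 genes tested on the lists this held for 7 (12.3%). The rest were 2 of 16 heparan sulfate genes, with none among the FGF binding and co-receptor genes or the other ERK outputs. For NF1 the margin was narrow, with 163.8, 101 and 164.2 CPM in siHOXA3 and a lowest siControl value of 164.5 CPM. Its value of 101 CPM was that of siHOXA3 replicate 2. NRAS, a RAS GTPase between SOS and RAF, had 198, 218 and 228 CPM in siControl and 147, 175 and 148 CPM in siHOXA3, with no overlap and a log2 fold change of -0.45 ± 0.109 (adjusted p = 0.486).

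The list of FGF binding proteins and co-receptors had 7 of 11 genes tested, with a median of 0.05. FLRT2, a membrane protein that binds FGF receptors, had 11.1, 13.3 and 11.9 CPM in siControl and 14.1, 17.4 and 16.5 CPM in siHOXA3, with no overlap (log2 fold change 0.40 ± 0.15, edgeR adjusted p = 0.724). FLRT1, its paralog, had 19, 9 and 6 counts in siControl and 30, 18 and 24 in siHOXA3, overlapping by 1 library of each group (log2 fold change 1.12 ± 0.470, adjusted p = 0.748). The 16 heparan sulfate genes tested had a median of -0.0046, and the 13 other ERK outputs a median of 0.02, with 7 higher and 6 lower. Of these 13, 1 (7.69%, against 6.41% of all genes tested) was higher in every siHOXA3 than in every siControl library. This was FOSL1, an AP-1 subunit, with 3.09, 3.11 and 2.23 CPM in siControl and 4.47, 3.52 and 3.66 CPM in siHOXA3 (log2 fold change 0.47 ± 0.25, edgeR adjusted p = 0.809).

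**Figure D4:**
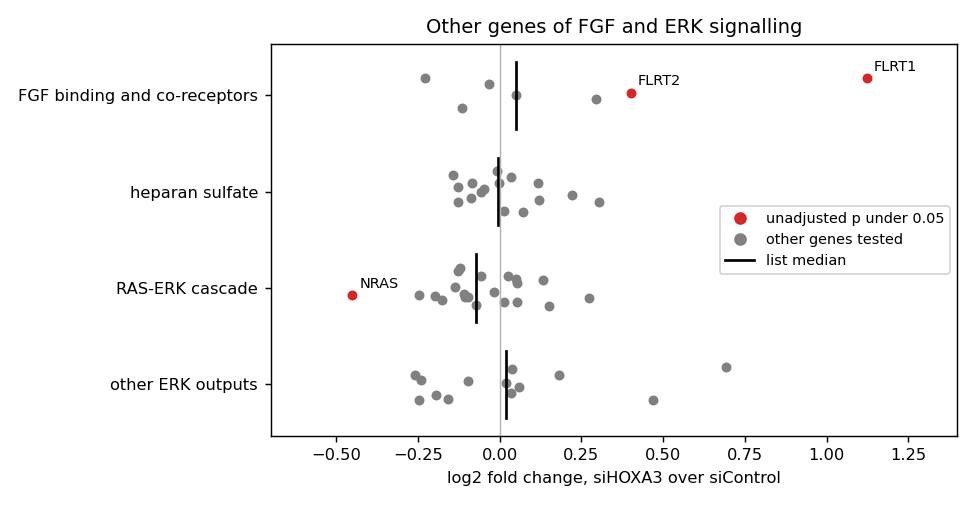
Log2 fold change of siHOXA3 over siControl for the 57 pathway genes tested outside the 37 members, 1 point per gene in 4 lists, with red points for an unadjusted p under 0.05 and a black line at each list's median. Most points lie close to 0, NRAS lies at -0.45, and FLRT1 and FLRT2 lie at 1.12 and 0.40.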

How the data were processed

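RNA-seq was performed on 3 siControl and 3 siHOXA3 libraries, grouped by their labels. The authors deposited raw counts of reads per gene, without normalization. Libraries were made by LM-Seq and read from one end, per the methods, in which differential expression was called with DESeq2. The submitters' processing notes name the mouse build GRCm38 (mm10), while all 58735 gene identifiers are human ones of GENCODE release 29, which gave symbols, positions on GRCh38 and lengths. The aligner and counter are not given in the sources used here.

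The tests were run with edgeR 4.0.16 under R 4.3.3 (filterByExpr, TMM, robust quasi-likelihood fit, Benjamini-Hochberg over 16561 genes). CPM used normalized library sizes, and TPM used the summed exon length. Total counts were 14117150 to 15282307 per library. Alternatives were DESeq2 1.42.0, limma 3.58.1 voom with quality weights, other normalizations and filters, a replicate block and each library left out. The edgeR fit was checked on simulated data.

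The members, gene lists and marker lists were chosen with earlier results of these data known. All members are named, with values in each library for receptors, genes with a mean of at least 5 CPM, an unadjusted p under 0.05 or groups without overlap. Other pathway genes were named where the unadjusted p was under 0.05. GRB2, SOS2, NF1 and FOSL1 were named after their values were seen. Single values of 1 gene on these lists are not reported here.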

Additional observations from a re-analysis of the deposited data

How the results depend on the processing

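None of the members had an adjusted p under 0.05 in any alternative, while over all genes tested the calls went from 1 to 38 with DESeq2, 67 with limma-voom, 100 with no filter, 4 with the replicate block and 24 without siHOXA3 replicate 2. Of 271 member fold changes under alternatives, 246 kept their direction and 25 reversed, all in genes within 0.19 of 0 on the log2 scale. SPRY4 had an unadjusted p under 0.05 in 13 of 13 alternatives, FGFR4 in 7, SPRY2 in 4 and FGFR3 in 2 (limma-voom, and without siHOXA3 replicate 2). With all genes kept (33 members tested) the median of the members was -0.11. With each library left out, the number of members with an unadjusted p under 0.05 was 1 to 3, and it was 1 without siControl replicate 1, 2 or 3 or siHOXA3 replicate 3. The number over all genes tested moved as well, from 643 of 17153 without siControl replicate 2 to 1828 of 17144 without siHOXA3 replicate 2. Log2 fold changes reversed with limma-voom to 0.096 for SPRY1, 0.12 for SPRED2 and 0.028 for IL17RD, and with upper-quartile normalization to 0.012 for FGF12, 0.0067 for FGF13 and 0.0071 for SPRY1. With libraries left out, they ranged from -0.22 to 0.076 for FGF2, from -0.18 to 0.39 for FGF22, from -0.15 to 0.095 for FGF12, from -0.20 to 0.14 for FGF13, from -0.14 to 0.13 for SPRY1, from -0.20 to 0.16 for SPRED2, from -0.069 to 0.70 for SPRED3, from -0.34 to 0.18 for DUSP6 and from -0.13 to 0.048 for IL17RD. The cause was not tested. The replicate numbers were not taken to pair the samples, since the 2 libraries of a number had deviations from their group means with correlations of 0.158, 0.111 and -0.0714. With the number as a block, 2 members had an unadjusted p under 0.05, against 1109 of all 16561 genes tested. The median of the members was then -0.063 and FGF12 reversed to 0.0010. HOXA3 was at -0.40 to -0.15 over the alternatives. SPRY4 and the ETV genes had 6 to 38 counts per library, and DESeq2 gave no adjusted p for FGF22, SPRED3, ETV1 and ETV4.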
